A study of Mus musculus with 48 samples.

Results

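Iron storage and transport were followed in mouse collagen-induced arthritis (CIA) through 7 genes, chosen by name from the 34586 genes of the count table. They are the ferritin chains Fth1 and Ftl1, the haem-degrading enzyme Hmox1, the iron exporter Slc40a1, the transferrin receptor Tfrc, the phagosomal metal transporter Slc11a1, and the plasma iron carrier Trf. All 7 genes were detected, with 58991 unique molecular identifiers (UMIs) for Fth1, 10821 for Ftl1, 2881 for Hmox1, 1078 for Tfrc, 155 for Slc11a1, 150 for Slc40a1, and 124 for Trf over all annotated cells. The depth for the last 3 genes is low, and a difference in them could be detected only if it was large.

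Seq-Well, which places each cell in a nanowell with a barcoded bead, gave single-cell counts from spleen, joint, skin, lung, and muscle of 10 male DBA1/J mice aged 8 to 12 weeks. The 6 CIA mice had received 100 µg bovine collagen II in complete Freund's adjuvant and a booster in incomplete adjuvant on day 20. The 4 healthy mice (H3, H4, H6, and H7) had received phosphate-buffered saline. Arthritis was severe in CIA mice S1, S2, and S3 and mild in S5, S6, and S8. Every organ had been frozen and thawed, and joint was sampled from 3 healthy and 5 CIA mice and each other organ from all 10. The sample names carry CIA or 2CIA, which was read as the name of an experiment. The severe mice and H3 were 2CIA and all others CIA, so severity and experiment cannot be told apart among the CIA mice.

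Iron enters most cells on transferrin through the transferrin receptor, is stored inside the ferritin shell of heavy and light chains, and leaves through ferroportin, the product of Slc40a1. Macrophages of spleen and liver recover iron from aged red cells, with haem oxygenase 1 opening the haem ring, and erythroid precursors take up most of the iron in circulation to make haem. In inflammation, hepcidin closes ferroportin and iron stays in macrophages, and Slc11a1 moves metal ions out of the phagosome. Iron regulatory proteins bind a short RNA hairpin, the iron-responsive element, before the coding region of ferritin and ferroportin messages, where binding blocks translation, and after the coding region of the transferrin receptor message, where binding protects the message from decay.

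These hairpins are shown because they are the sequence feature that separates the 7 genes by how iron acts on them, and because the UMI counts measure messages and not translation. The untranslated regions of each gene in GRCm38 were searched on the sense strand for a bulged C, 5 paired bases counting G with T as a pair, and a loop of CAGTGN, where N is any base. Such a hairpin lay in the 5′ untranslated region of 31 of 20580 genes (0.151%) and in the 3′ untranslated region of 129 of 20978 genes (0.615%). A match is a description of the letters. The loop stands in capitals.
Fth1, 5′ untranslated region, chr19:9982732-9982760, plus strand: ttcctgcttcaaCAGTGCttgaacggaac
Ftl1, 5′ untranslated region, chr7:45459779-45459807, minus strand: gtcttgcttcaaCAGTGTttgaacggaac
Slc40a1, 5′ untranslated region, chr1:45925465-45925493, minus strand: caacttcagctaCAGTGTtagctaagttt
Tfrc, 3′ untranslated region, chr16:32631219-32631247, plus strand: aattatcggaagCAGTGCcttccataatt
Tfrc, 3′ untranslated region, chr16:32631598-32631626, plus strand: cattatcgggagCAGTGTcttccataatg
Tfrc, 3′ untranslated region, chr16:32631663-32631691, plus strand: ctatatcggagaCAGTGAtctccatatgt
Tfrc, 3′ untranslated region, chr16:32631710-32631738, plus strand: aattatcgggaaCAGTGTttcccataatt
Fth1 and Ftl1 each held 1 hairpin, with loops that differ in their last base, Slc40a1 held 1, and Tfrc held 4. In Hmox1, Slc11a1, and Trf these letters were not found.

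In the same build the genes lie at chr19:9980598-9985098 (Fth1, plus strand), chr7:45457944-45459884 (Ftl1, minus), chr8:75093621-75100589 (Hmox1, plus), chr1:45908068-45926523 (Slc40a1, minus), chr16:32608920-32632794 (Tfrc, plus), chr1:74375195-74386062 (Slc11a1, plus), and chr9:103204001-103230444 (Trf, minus). Both ferritin genes have processed copies elsewhere in the genome with rows of their own in the table, and reads could be split among them.

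Rows of the table whose annotated transcript shared a stretch of at least 25 bases with a coding transcript of Fth1 or Ftl1 were therefore counted. For the heavy chain 3 such rows held 10118 UMIs, or 17.2% of the UMIs of Fth1, with 9340 in Gm6977 alone. For the light chain 26 rows held 14230 UMIs, more than the 10821 of Ftl1 itself, with 3122 in Mir692-1, 2522 in Gm8814, and 1668 in Gm15590. Not all of these rows were annotated as processed pseudogenes. Mir692-1 and several others were annotated as microRNA genes and Ftl1-ps1 (68 UMIs) as protein coding. Gm24272 (547 UMIs) and Gm11920 (183 UMIs) shared only 1 stretch of 25 bases with Ftl1. All rows counted here are called copies below, whatever their annotation. How many of these UMIs came from the genes themselves was not tested. The levels of Ftl1 below are those of its own row, and the values with all copies added are given where they change what is said.

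Of 13240 cells, 12096 carried a deposited cell type, with a median of 675 UMIs and a range of 410 to 6239. The cells had 13164 distinct barcodes, and 59 barcodes occurred in more than 1 library. For each mouse, the UMIs of all cells sharing a label and an organ were added up and are given as counts per 1000000 UMIs of that sum (CPM), and n is the number of such sums, each of at least 5 cells unless a higher limit is stated. Spleen cells had been pressed through a strainer with red cell lysis, and the other organs were digested with collagenase of a type and dose that differed between organs, so organ and preparation cannot be told apart. Muscle also had red cell lysis in H6, H7, S2, S3, S6, and S8 and not in H3, H4, S1, and S5. Of the 2 deposited label columns, which differ for 2563 of the 12096 cells, the marker-based one was used. The labels had been made by the authors from expression, with Tfrc among their erythrocyte markers. Levels are therefore compared across cell types as a description, without a test.

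Pooled over organs, macrophages held the highest mean of Ftl1 and Hmox1 and, after neutrophils, of Fth1. The cell types drew on different organs. Spleen gave 7 granulocyte, 8 erythrocyte, and 1 macrophage sample, and neutrophils came from muscle (n = 3) and joint (n = 1). Mean Fth1 was higher in granulocytes than in macrophages in joint (11251 against 7905 CPM) and muscle (12833 against 9109 CPM). It was lower in the 1 spleen sample with both (2715 against 6290 CPM). In spleen, erythrocytes had more Fth1 than granulocytes in 4 of 6 mice. Heavy-chain message in macrophages was 8907 ± 2872 CPM (SD, n = 30), next to 8068 ± 6574 CPM (n = 19) in granulocytes and 2231 ± 963 CPM (n = 10) in erythrocytes. Neutrophils, which the deposited labels keep apart from granulocytes, held the highest level with 18326 ± 4841 CPM (n = 4), and Basal III cells, an epidermal type, the lowest with 844 ± 492 CPM (n = 12, with 10 samples from skin and 2 from joint). The neutrophil samples (14015 to 25272 CPM) reached into the range of macrophages (3742 to 15368 CPM), and granulocytes, from 761 to 19259 CPM, overlapped with both.

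Ftl1, the light chain, was highest in macrophages at 3234 ± 1615 CPM (n = 30) and lowest in erythrocytes at 258 ± 146 CPM (n = 10), with granulocytes between them at 1514 ± 1453 CPM (n = 19). With the copies added, macrophages still led at 8711 ± 4291 CPM, and Basal III cells at 630 ± 238 CPM were next to erythrocytes at 655 ± 605 CPM. Hmox1 was led by the same cell types, with 1044 ± 583 CPM in macrophages, 859 ± 758 CPM in neutrophils (n = 4), and 428 ± 470 CPM in granulocytes. In erythrocytes, 1 Hmox1 UMI was found in 10 samples, and in NK cells 1 UMI in 15 samples. The first 3 cell types in the order of Hmox1 overlapped in range, while erythrocytes and NK cells lay at the floor of the measurement.

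Tfrc showed the reverse order. Erythrocytes held 503 ± 270 CPM (n = 10), dendritic cells 150 ± 145 CPM (n = 15), granulocytes 88.3 ± 77.6 CPM (n = 19), and macrophages the lowest mean of the 13 cell types with 37.3 ± 53.4 CPM (n = 30). Tfrc helped to define the erythrocyte label, so its place at the top was set by the labels in part. It was not among the authors' macrophage markers, and whether the labels also shaped its place in macrophages was not tested. Macrophages held 46 Tfrc UMIs, and 15 of 30 macrophage samples held none.

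The 3 rarest genes differed in the cells that held them. Slc40a1 was highest in granulocytes at 49.7 ± 56.5 CPM (83 UMIs, in 11 of 19 samples) and erythrocytes at 46.0 ± 47.7 CPM (10 UMIs, in 7 of 10 samples), and macrophages held 6 UMIs in 5 of 30 samples. Slc11a1 stood at 70.5 ± 72.8 CPM in neutrophils (7 UMIs), 49.5 ± 73.2 CPM in macrophages (54 UMIs, in 18 of 30 samples), and 33.2 ± 61.2 CPM in granulocytes. Trf was highest in macrophages at 42.2 ± 59.1 CPM (48 UMIs, in 16 of 30 samples), and 3 UMIs were found in granulocytes and 1 in erythrocytes. In each of these orders the leading cell types differed by less than their SD.

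**Figure D1:**
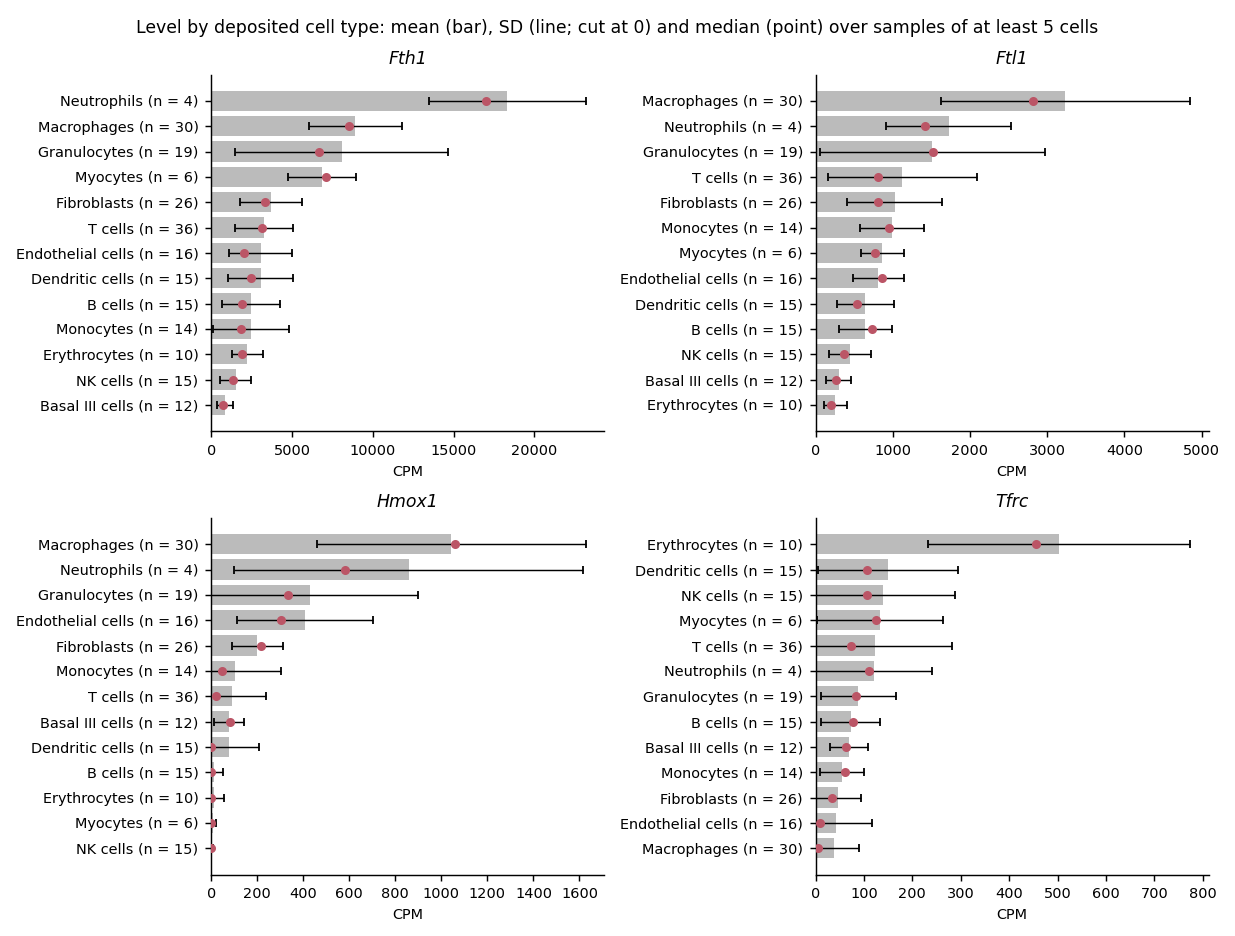
Level of Fth1, Ftl1, Hmox1, and Tfrc (1 panel each) by deposited cell type, in CPM, as the mean (bar), SD (line, cut at 0), and median (point) over samples of at least 5 cells, with the number of samples beside each name. Fth1, Ftl1, and Hmox1 lead in macrophages, neutrophils, and granulocytes, and Tfrc leads in erythrocytes with 503 CPM.

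The balance of the ferritin chains also differed. The ratio of Fth1 to Ftl1 UMIs was 10.4 ± 4.98 in erythrocytes (n = 10), 11.4 ± 2.64 in neutrophils (n = 4), 6.20 ± 3.03 in granulocytes (n = 18 with Ftl1 UMIs), and 3.66 ± 2.99 in macrophages (n = 30). With the copies added to both genes, the ratios were 6.01 ± 3.28, 6.62 ± 2.07, 3.22 ± 1.76, and 1.84 ± 1.32 in the same order of cell types. Counted in their own rows, both chains took 2.00% ± 0.56 of all UMIs in neutrophils, 1.21% ± 0.364 in macrophages, 0.958% ± 0.774 in granulocytes, and 0.249% ± 0.102 in erythrocytes. Within the joint, granulocytes had more Fth1 than macrophages in 5 of 7 mice and less Hmox1 in 5 of 7. In muscle, all 4 mice with both cell types had less Ftl1 in granulocytes than in macrophages.

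Slc40a1 in the joint separated these cell types by count. Joint granulocytes held 59 UMIs in 766229 and joint macrophages 3 UMIs in 330646, a ratio of 8.49 with an exact 95% counting interval from 2.77 to 42.3. This interval, like every counting interval below, covers counting error only and not the spread between mice. The level was above 0 in 5 of 8 joint granulocyte samples, with 45 of the 59 UMIs from mouse S5 alone.

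The first question of the design was whether CIA changed these genes. For the 7 genes, CIA and healthy mice were compared in 18 settings, 13 of them a cell type in an organ and 5 a whole organ, with the quasi-likelihood test of edgeR. The settings gave 119 values, of which 47 came from genes that passed the filter on low counts and 72 were read from the same fit without that filter. None of the 119 passed an adjusted p of 0.05, and the lowest adjusted p was 0.334. An unadjusted p under 0.05 was found for 12 of them, namely Ftl1 in whole skin, Hmox1 in spleen monocytes, whole muscle, and whole spleen, Slc11a1 in lung macrophages, whole lung, muscle macrophages, and muscle fibroblasts, Slc40a1 in whole spleen, Tfrc in spleen NK cells, and Trf in lung macrophages and whole lung. Fth1 was higher in CIA in 8 settings and lower in 10, between log2 values of -0.79 and 0.55, and Ftl1 was higher in 6 and lower in 12, between -1.13 and 0.92. DESeq2 run on the genes that passed the filter called 0 of them as well.

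The share of all genes called, against which these counts of 0 stand, was low wherever it came from the fit without the filter. There it was 0.52% in joint fibroblasts, 0.0714% in joint macrophages, 0.193% in lung macrophages, 0.0117% in muscle fibroblasts, 0.0685% in muscle macrophages, 0.147% in muscle T cells, 0.0818% in skin Basal III cells, 0.0766% in skin fibroblasts, 0.0831% in spleen B cells, 0.485% in spleen monocytes, and 0.0971% in spleen NK cells. Whole organs gave 0.274% in joint, 0.435% in lung, 0.25% in muscle, 0.152% in skin, and 0.747% in spleen in that fit, and joint granulocytes gave 0 of 15489 genes.

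DESeq2 on filtered genes called 4.04% in joint fibroblasts, 0.595% in joint granulocytes, 10.6% in joint macrophages, 7.25% in lung macrophages, 1.73% in muscle fibroblasts, 0.183% in muscle macrophages, 0.102% in muscle T cells, 0.287% in skin fibroblasts, 0.319% in spleen B cells, 9.87% in spleen monocytes, and 0.713% in spleen NK cells. It called 1.95% in whole joint, 5.1% in whole lung, 0.275% in whole muscle, 0.321% in whole skin, and 1.61% in whole spleen, and 0 genes in skin Basal III cells and spleen erythrocytes. The ferritin chains passed the filter in every setting but for Ftl1 in spleen erythrocytes, so the filtered shares given beside each comparison are the ones they are read against.

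**Figure D2:**
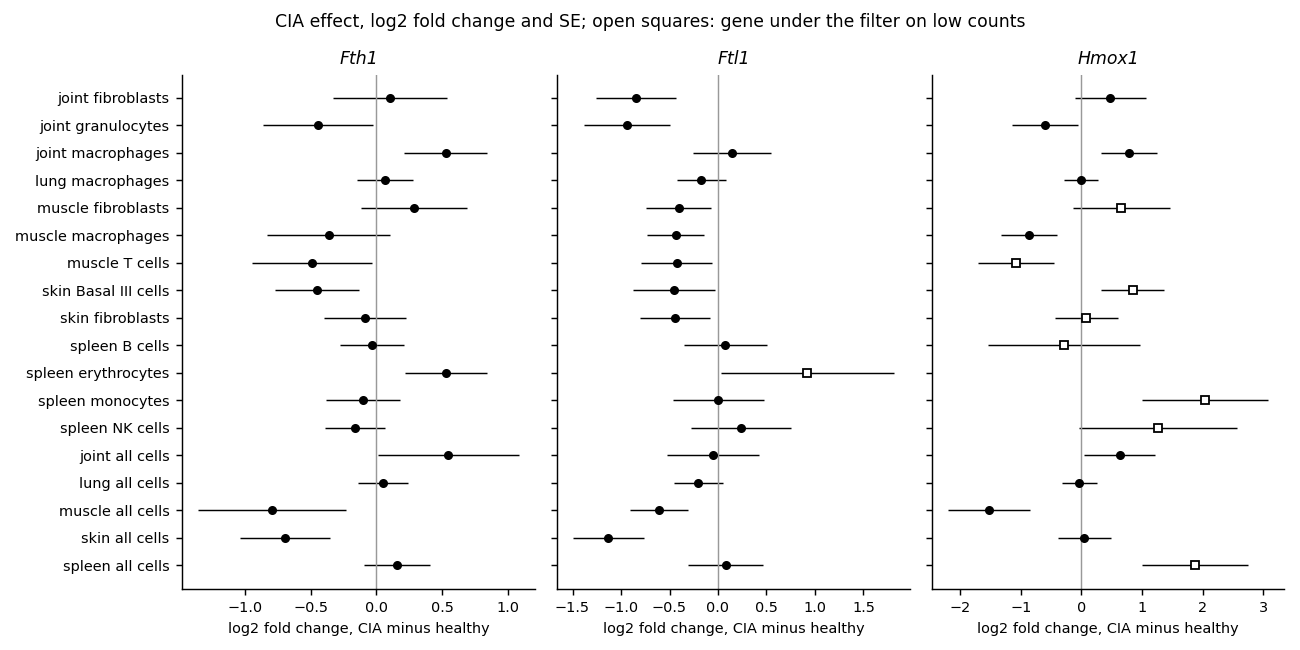
Log2 fold change in CIA against healthy mice (x axis) with its SE for Fth1, Ftl1, and Hmox1 (1 panel each) in the settings compared (y axis), with filled points for genes that passed the filter on low counts and open squares for genes under it. The values of Fth1 lie between -0.79 and 0.55, and those of Hmox1 under the filter have the widest bars.

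In joint macrophages, heavy-chain ferritin and haem oxygenase had higher means in CIA without passing the test, in a comparison in which 28 of 273 genes (10.3%) did. Fth1 was at 5325, 5462, and 7979 CPM in healthy mice H3, H4, and H7 and at 7833, 7612, 13035, and 8090 CPM in CIA mice S1, S3, S5, and S8. Hmox1 was at 266, 840, and 1068 CPM in these healthy mice and at 799, 1048, 1473, and 1380 CPM in the CIA mice. For both genes the CIA mice lay mostly above the healthy ones, with the groups overlapping through H7 for Fth1 and through H4, H7, S1, and S3 for Hmox1.

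The log2 differences in joint macrophages were 0.52 for Fth1 (SE 0.32, edgeR adjusted p = 0.421) and 0.79 for Hmox1 (SE 0.47, edgeR adjusted p = 0.416). Ftl1 gave 0.14 (SE 0.40, edgeR adjusted p = 0.880), with 1765 to 4327 CPM in healthy and 2050 to 4014 CPM in CIA mice, and -0.36 with the copies added. Granulocyte markers moved with disease in these cells. The sum of 8 granulocyte genes, all with UMIs in the CIA samples and Ly6g and Mmp9 at 0 in the healthy ones, was 33910 to 60203 CPM in CIA and 924 to 8326 CPM in healthy joint macrophages, and its part in the values above was not tested.

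Lung macrophages, with at least 29 cells in each of 10 mice, gave the most precise comparison of the ferritin chains. Fth1 ranged from 6188 to 10695 CPM in healthy mice (median 9492) and from 7889 to 12094 CPM in CIA mice (median 10054). Ftl1 ranged from 2982 to 5490 CPM and from 2088 to 6309 CPM, and Hmox1 from 749 to 1552 CPM and from 505 to 1830 CPM. The groups overlapped for all 3 genes, with 3 of the 6 CIA mice above every healthy mouse for Fth1, and the log2 differences were 0.07 for Fth1 (SE 0.21), -0.17 for Ftl1 (SE 0.25), and -0.00 for Hmox1 (SE 0.28), where 35 of 538 genes (6.51%) passed.

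Among the CIA mice, Fth1 and Hmox1 in lung macrophages parted between severe and mild mice. The severe mice were all of 2CIA and the mild mice all of CIA, so severity and experiment cannot be told apart here. Fth1 was at 10982, 11682, and 12094 CPM in the severe mice S1, S2, and S3 and at 8386, 9125, and 7889 CPM in the mild mice S5, S6, and S8. Hmox1 was at 1830, 1759, and 1209 CPM in the severe and at 1074, 505, and 986 CPM in the mild mice. These groups did not overlap for either gene, which was also so for 302 of 2039 genes of at least 20 UMIs (14.8%), with the severe mice higher in 181 (8.88%). The healthy mice, at 6188 to 10695 CPM of Fth1, lay below all severe mice and over the range of the mild ones. Their Hmox1, at 749 to 1552 CPM, overlapped with both, and no test was made. The means of the other organs ran the opposite way. In joint macrophages Fth1 was at 7612 and 7833 CPM in the severe and at 8090 and 13035 CPM in the mild mice, and Hmox1 was at 799 and 1048 CPM against 1380 and 1473 CPM. In muscle macrophages the severe mice had means of 6748 CPM of Fth1 and 544 CPM of Hmox1, and the mild mice 10757 and 979 CPM, from 2 mice each. Fth1 was at 3742 and 9754 CPM in the severe and at 10334 and 11180 CPM in the mild mice. Hmox1 overlapped there, at 478 and 611 CPM in the severe and at 477 and 1481 CPM in the mild mice. The higher mild mean of Hmox1 in muscle rested on S5.

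The rare transporters of lung macrophages parted in most mice without passing the test. Trf was at 201, 77.0, 179, and 97.7 CPM in healthy mice H3, H4, H6, and H7 (24 UMIs) and at 11.4, 32.3, 52.6, 34.7, 112, and 0 CPM in CIA mice S1, S2, S3, S5, S6, and S8 (9 UMIs). S6 alone lay in the healthy range. Read without the filter, the log2 difference was -1.82 (SE 0.68, edgeR adjusted p = 0.586). The ratio of the summed counts was 0.304 (exact 95% counting interval 0.124 to 0.678, which leaves out the spread between mice).

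Slc11a1 in lung macrophages was at 0, 9.63, 0, and 32.6 CPM in healthy mice (2 UMIs) and at 11.4, 48.4, 52.6, 173, 56.2, and 58.0 CPM in the CIA mice (13 UMIs). It was detected in 6 of 6 CIA and 2 of 4 healthy mice, and all CIA mice but S1 were above the healthy ones. The log2 difference was 2.07 (SE 1.01, edgeR adjusted p = 0.586), in a fit without the filter in which 32 of 16555 genes passed (0.193%) and the median log2 difference was -0.14. The ratio of the counts was 5.28 (exact 95% counting interval 1.19 to 48.1).

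Markers of lung macrophage state and of granulocytes moved with disease beside these genes. The summed level of 8 alveolar macrophage genes, of which Marco was at 0, was 2089 to 3697 CPM in healthy and 870 to 1769 CPM in CIA mice. The granulocyte sum was 358 to 573 CPM in healthy mice, with Ltf and Ly6g at 0, and 580 to 14723 CPM in CIA mice. Neither range overlapped between the groups, though the granulocyte ranges nearly met at 573 and 580 CPM. How often other sums of genes part in this way was not counted. The part of either list in the values of Trf and Slc11a1 was not tested.

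Muscle macrophages leaned the other way from those of the joint. Hmox1 was at 1310, 2150, and 1268 CPM in healthy mice H4, H6, and H7 and at 611, 478, 1481, and 477 CPM in CIA mice S2, S3, S5, and S6. All CIA mice except S5, the only CIA mouse here without red cell lysis of muscle, were below all healthy mice. The log2 difference was -0.86 (SE 0.46, edgeR adjusted p = 0.723), where 1 of 545 genes (0.183%) passed, and -1.08 (edgeR adjusted p = 0.432) with red cell lysis as a term.

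Fth1 in muscle macrophages was at 8629, 12993, and 15368 CPM in healthy and at 9754, 3742, 11180, and 10334 CPM in CIA mice, with a log2 difference of -0.36 (SE 0.47, edgeR adjusted p = 0.877). Ftl1 gave -0.44 (SE 0.29, edgeR adjusted p = 0.723). Slc11a1 had 1 UMI in healthy and 18 in CIA muscle macrophages, 10 of the 18 in mouse S5. The count ratio was 5.74 (exact 95% counting interval 0.907 to 239), and the log2 difference of 2.80 (edgeR adjusted p = 0.669) stood beside a median of 1.00 over all genes of that unfiltered fit. It was 1.73 without S5 and 5.06 without H7, the healthy mouse with the UMI.

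Whether disease acted differently on the 7 genes in macrophages of different organs was tested with an organ by disease term over joint, lung, and muscle, in 24 sums of at least 10 cells. None of the 7 genes passed in any pair of organs, where 0.11% of genes passed for lung minus joint, 1.2% for lung minus muscle, and 2.41% for muscle minus joint. The CIA effect on Hmox1 was lower in muscle than in joint by a log2 value of -1.77 (SE 0.64, edgeR adjusted p = 0.171). That on Fth1 was lower by -0.97 (SE 0.49, edgeR adjusted p = 0.367).

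**Figure D3:**
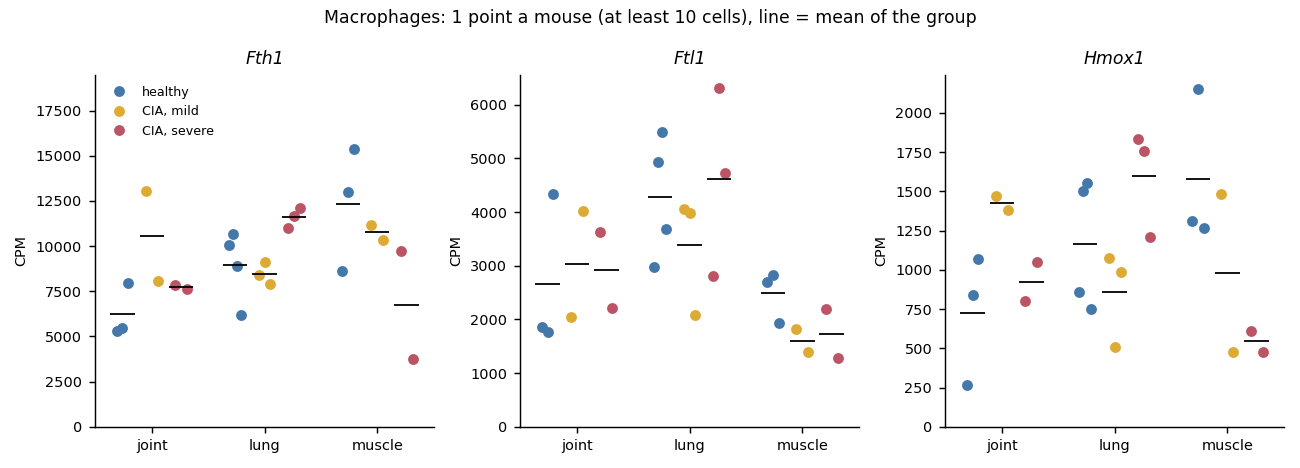
CPM (y axis) of Fth1, Ftl1, and Hmox1 in macrophages of joint, lung, and muscle (x axis), with 1 point for each mouse of at least 10 cells, colours for healthy, mild CIA, and severe CIA mice, and a line for the mean of each of these. Fth1 of S5 in the joint stands at 13035 CPM above the other CIA mice, and Fth1 in the lung is at 10982 CPM or more in the severe mice.

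Macrophages of different organs, and so of different preparations, differed in their light chain and in Trf. The 24 sums were fitted together with organ and disease as terms over 651 genes. Lung macrophages had more Ftl1 than muscle macrophages, with 4107 ± 1293 CPM (n = 10) against 2017.4 ± 594 CPM (n = 7). The lung samples ran from 2088 to 6309 CPM, and the muscle samples were at 2697, 2818, 1932, 2187, 1274, 1817, and 1396 CPM in mice H4, H6, H7, S2, S3, S5, and S6, so the ranges overlapped. The lung value was higher in 7 of 7 mice with both, and the log2 difference was 1.23 (SE 0.24, edgeR adjusted p = 0.000404), in a contrast in which 184 genes (28.3%) passed. With the copies added it was 1.45 (edgeR adjusted p = 0.000521).

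Fth1 did not pass between lung and muscle macrophages (log2 difference 0.08, SE 0.23, edgeR adjusted p = 0.845). The ratio of Fth1 to Ftl1 UMIs was 2.53 ± 0.853 in lung (n = 10) and 4.48 ± 2.31 in muscle macrophages (n = 9). Against joint macrophages, lung Ftl1 was higher by 0.61 (SE 0.23, edgeR adjusted p = 0.0797) and did not pass in edgeR, while DESeq2 gave 0.62 (adjusted p = 0.0462). Muscle minus joint gave -0.62 for Ftl1 (SE 0.26, edgeR adjusted p = 0.210), and 0 of the 7 genes passed there against 1.54% of all genes.

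Trf was low in joint macrophages. Lung samples held 33 UMIs and 79.8 ± 68.3 CPM (n = 10), and joint samples held 2 UMIs, both in mouse S5, and 2.17 ± 5.74 CPM (n = 7), while 3 skin samples held 2 UMIs and 68.7 ± 72.1 CPM. Trf was higher in lung than in joint in 6 of 7 mice with both, and in the seventh, S8, neither organ had a UMI. The log2 difference in the fit without the filter was 2.98 (SE 0.79, edgeR adjusted p = 0.0241), where 198 genes (0.972%) passed, beside 92 of 651 (14.1%) in the filtered fit, and the ratio of the summed counts was 12.04 (exact 95% counting interval 3.08 to 104).

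The call for Trf was not stable. With the mouse as a block, since the organs came from the same animals, the log2 difference was 3.51 (edgeR adjusted p = 0.0633), and without H3, H4, H6, H7, S1, or S6 the adjusted p was 0.0533 to 0.19. Muscle macrophages held 35.3 ± 51.0 CPM of Trf, and lung minus muscle did not pass (log2 difference 0.80, SE 0.62, edgeR adjusted p = 0.563). Tfrc was lower in lung than in muscle macrophages by -1.72 on the log2 scale (SE 0.67, edgeR adjusted p = 0.210).

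Haemoglobin and other erythroid genes differed between these organs too. Their summed level in macrophages, over 8 genes, was 0 to 870 CPM in lung, with Alas2, Hba-a2, and Slc4a1 among the genes at 0, and 10114 to 85037 CPM in joint. In muscle macrophages of at least 5 cells it was 118 to 52778 CPM, with Hba-a2 at 0. Mitochondrial genes took 9.09 to 13.8% of UMIs in lung, 3.69 to 12.4% in joint, and 2.70 to 11.6% in muscle. The part of either in the organ contrasts was not tested.

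Granulocytes had the largest SD of Fth1 of the 13 cell types, and their levels differed by organ. Their sums were compared between 7 spleen samples (H4 and the 6 CIA mice), 8 joint samples, and 4 muscle samples (all healthy, since no CIA muscle sample reached 5 granulocytes), with organ and disease as terms. This comparison was chosen after the levels had been seen. Of 237 genes tested, 80 (33.8%) passed for spleen minus joint, among them Fth1, Ftl1, and Hmox1.

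Fth1 in spleen granulocytes was at 852 CPM in H4 and at 1696, 1619, 2715, 2657, 761, and 1648 CPM in S1, S2, S3, S5, S6, and S8. In joint granulocytes it was at 15820, 6529, and 19259 CPM in H3, H4, and H7 and at 11561, 3838, 17099, 9207, and 6692 CPM in S1, S3, S5, S6, and S8. Every joint sample lay above every spleen sample, and among all genes of at least 20 UMIs this separation in either direction was found for 29 of 3975 (0.73%). The CIA mice alone show the same, with at most 2715 CPM in spleen and at least 3838 CPM in joint.

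The mean of Fth1 was 1707 ± 770 CPM in spleen (n = 7) and 11251 ± 5625 CPM in joint (n = 8), a log2 difference of -2.41 (SE 0.36, edgeR adjusted p = 3.03e-05). Ftl1 was 264 ± 209 CPM in spleen and 2471 ± 1632 CPM in joint, also without overlap (0 to 635 against 1216 to 6330 CPM), with a log2 difference of -2.66 (SE 0.41, edgeR adjusted p = 3.55e-05). Hmox1 had 7 UMIs in spleen and 603 in joint granulocytes, with 27.2 ± 46.8 CPM against 675 ± 476 CPM and a log2 difference of -4.29 (SE 0.64, edgeR adjusted p = 3.03e-05). In the same animal, Fth1 and Ftl1 were lower in spleen in 6 of 6 mice with both organs, and Hmox1 in 5 of 6.

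All 3 genes also passed with the mouse as a block, with at least 10 cells, with plain library size, in DESeq2, with the ferritin copies added, and without each mouse in turn. With the copies, Ftl1 was at 0 to 1449 CPM in spleen and 2493 to 21414 CPM in joint granulocytes. Spleen was lower than muscle as well, by -2.29 for Fth1 (SE 0.55, edgeR adjusted p = 0.0205) and by -3.54 for Hmox1 (SE 0.86, edgeR adjusted p = 0.0205), where 8 of 237 genes (3.38%) passed. Ftl1 gave -1.55 (edgeR adjusted p = 0.175). The muscle calls were lost with at least 10 cells (adjusted p = 0.555 for both) and without H4, H6, or S2 (adjusted p 0.059 to 0.581), and for Hmox1 also with the mouse as a block (-3.02, adjusted p = 0.193). Only H4 had both organs. Muscle and joint granulocytes gave 0 calls among 237 genes, 21 of which had an unadjusted p under 0.05, and Fth1 there differed by -0.11 (SE 0.44).

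Granulocyte genes were high under this label in all 3 organs. Most of them were among the authors' markers of granulocytes or neutrophils, so this was set by the labels in part. The sum of these 8 genes, each with UMIs in every organ, was 276290 to 421700 CPM in joint, 333270 to 414550 CPM in muscle, and 340140 to 548850 CPM in spleen. Macrophage markers stood at 0 to 539 CPM in joint and at 0 to 380 CPM in spleen, with Adgre1 at 0 in both and C1qa, C1qb, C1qc, and Mrc1 also at 0 in spleen. Fibroblast markers were at 331 to 918 CPM in joint and at 0 to 127 CPM in spleen, where 1 of 4 genes had a UMI, and erythroid markers were at 6026 to 31897 and 639 to 38890 CPM. The part of the fibroblast difference in the contrast was not tested.

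The exporter and the receptor did not follow ferritin in granulocytes. Slc40a1 was 40.4 ± 53.5 CPM in spleen and 67.5 ± 69.7 CPM in joint (log2 difference -0.70, SE 0.66, edgeR adjusted p = 0.579). Tfrc was 82.6 ± 77.2 and 74.5 ± 78.7 CPM (-0.49, SE 0.66, edgeR adjusted p = 0.707). Neither difference exceeded the spread between mice.

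Within joint granulocytes, CIA and healthy mice did not part. Fth1 gave a log2 difference of -0.44 (SE 0.42, edgeR adjusted p = 0.850) and Hmox1 of -0.60 (SE 0.54, edgeR adjusted p = 0.850), and without the filter on low counts these were 0.66 and 0.37. Ftl1 was at 2922, 1801, and 6330 CPM in healthy mice H3, H4, and H7 and at 2070, 1216, 1624, 1841, and 1962 CPM in CIA mice S1, S3, S5, S6, and S8, with -0.94 (SE 0.44, edgeR adjusted p = 0.616). The value of H4 lay among the CIA mice. No gene of 168 passed in this comparison, in which the healthy samples held 5 to 24 cells, while 12 had an unadjusted p under 0.05 and DESeq2 called 1.

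Cells labelled as T cells, another of the types present in several organs, showed the same direction. They were compared after the levels had been seen, over 8 spleen, 8 joint, 9 muscle, and 8 lung samples and 225 genes. Spleen samples held 951 to 1835 CPM of Fth1 with a mean of 1466 ± 294 CPM, and joint samples 2524 to 4981 CPM with a mean of 3607 ± 958 CPM. The groups did not overlap, which was so for 17 of 3659 genes of at least 20 UMIs (0.465%). The log2 difference of Fth1 was -1.38 (SE 0.28, edgeR adjusted p = 0.00155), in a contrast in which 9 genes (4%) passed, and Fth1 was lower in spleen in 6 of 6 mice.

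Ftl1 in these cells was lower in spleen than in joint by -1.80 (SE 0.31, edgeR adjusted p = 0.000194), with 569 ± 303 CPM against 1940 ± 1474 CPM. Hmox1 had 4 UMIs in 2 of 8 spleen samples and 36 UMIs in 6 of 8 joint samples, a count ratio of 12.4 (exact 95% counting interval 4.46 to 48.1), and its log2 difference was -3.00 (SE 0.71, edgeR adjusted p = 0.0164) in the unfiltered fit, where 40 genes (0.188%) passed. That call was lost with the mouse as a block (adjusted p = 0.0786) and without H7, S2, S3, or S5 (0.0533 to 0.177). With at least 10 cells the calls of all 3 genes were lost, at adjusted p of 0.193 for Fth1, 0.117 for Ftl1, and 0.132 for Hmox1.

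Against the other organs, the chains parted. Fth1 in spleen was lower than in muscle by -1.58 (SE 0.27, edgeR adjusted p = 0.000294), in 6 of 7 mice, where 6 genes (2.67%) passed, and this call held with at least 10 cells and without each mouse. Ftl1 did not pass there (-0.37, SE 0.30, edgeR adjusted p = 0.610). Muscle was instead lower than joint in Ftl1 by -1.43 (SE 0.29, edgeR adjusted p = 0.00190) and not in Fth1 (0.21, SE 0.26, edgeR adjusted p = 0.688), where 4.44% of genes passed. The Ftl1 call was lost with at least 10 cells (-0.51, adjusted p = 0.55).

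Spleen was lower than lung in both chains, by -1.23 for Fth1 (SE 0.30, edgeR adjusted p = 0.00453) and -1.57 for Ftl1 (SE 0.35, edgeR adjusted p = 0.00336), among 50 genes (22.2%) that passed. Both calls were lost with at least 10 cells (adjusted p of 0.723 and 0.695). Tfrc ran the other way, with 160 ± 211 CPM in spleen and 29.2 ± 82.6 CPM in lung, and did not pass (edgeR adjusted p = 0.223).

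The T cell label was weakly borne out by its markers. The sum of Cd3d, Cd3e, Trac, and Bcl11b had a median of 19.1 CPM in joint (0 to 396), 91.6 in spleen, 327 in muscle, and 254 in lung. The sum of 4 B cell genes had medians of 110 CPM in joint, 625 in spleen, 738 in muscle, and 231 in lung, above the T cell sum in the first 3. Granulocyte genes stood at 5058 to 36477 CPM in joint and at 83.3 to 14811 CPM in spleen, with Ly6g at 0, and their part in the contrast was not tested. Macrophage genes were at 71.2 to 609 CPM in joint, with Adgre1 and Mrc1 at 0, and at 131 to 959 CPM in spleen. The sum of 3 monocyte genes had a median of 860 CPM in joint (0 to 1541) and 237 CPM in spleen (0 to 1432), above the T cell sum in both. Fibroblast genes were at 259 to 1140 CPM in joint and at 0 in all spleen samples, and the part of these lists was not tested either.

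The low Fth1 of spleen was seen in the means of other labels as a description, with ranges that overlapped. Spleen against muscle means were 1661 ± 317 CPM (n = 10) and 4035 ± 2504 CPM (n = 5) in B cells, 1239 ± 266 CPM (n = 10) and 2470 ± 1412 CPM (n = 4) in NK cells, and 1985 ± 577 CPM (n = 8) and 3849 ± 2735 CPM (n = 5) in dendritic cells. In the same order, spleen samples reached up to 2015, 1693, and 2781 CPM, and muscle samples down to 1742, 1209, and 728 CPM. Monocytes of spleen, at 1926 ± 563 CPM (n = 10), were not below those of muscle, at 1535 ± 563 CPM (n = 3). The 1 joint sample of monocytes, from S1, held 10398 CPM, against 1743 CPM in the spleen monocytes of the same mouse. Spleen macrophages reached 5 cells in 1 mouse only, S3, with 6290 CPM of Fth1, 381 CPM of Ftl1 (2 UMIs), and no Hmox1 UMI. Of 8 macrophage markers 1 was detected there, so the red cell recycling macrophages for which spleen is known were not analysed here.

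**Figure D4:**
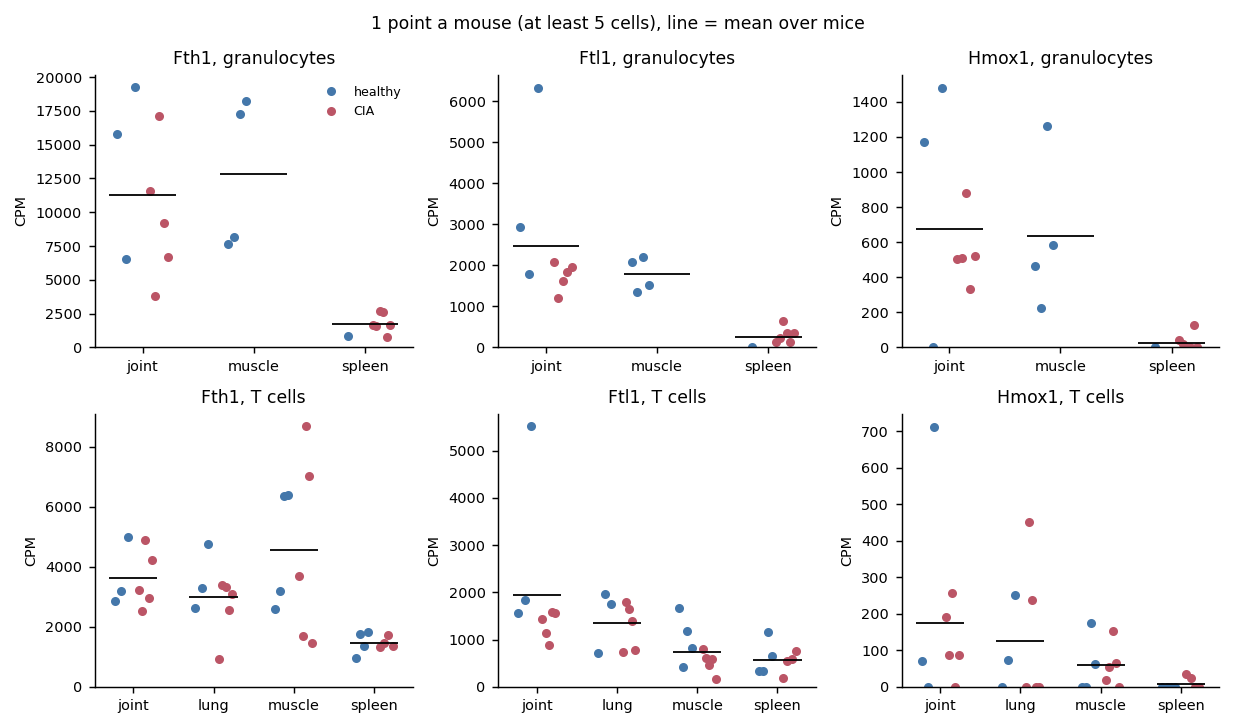
CPM (y axis) of Fth1, Ftl1, and Hmox1 in granulocytes and in cells labelled T cells by organ (x axis), with 1 point for each mouse of at least 5 cells, colours for healthy and CIA mice, and a line for the mean over mice. Spleen granulocytes lie at 761 to 2715 CPM of Fth1, below all joint samples (3838 to 19259 CPM).

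Erythrocytes were rich in Tfrc and, like every other cell type by its mean, had more of the heavy than of the light chain. In 8 spleen samples Tfrc was at 144, 378, and 544 CPM in healthy mice H3, H4, and H7 and at 514, 398, 240, 913, and 777 CPM in CIA mice S1, S2, S5, S6, and S8. The 2 highest values were of CIA mice S6 and S8, and the other 3 CIA mice lay within the healthy range. The log2 difference was 1.02 (SE 0.80, edgeR adjusted p = 0.699) in the unfiltered fit, in which the median over all genes was 0.80, and 1 of 13059 genes passed (0.00766%).

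Fth1 in spleen erythrocytes was at 1292, 2298, and 1450 CPM in healthy and at 1855, 3060, 2637, 1597, and 1632 CPM in CIA mice. The log2 difference was 0.53 (SE 0.31, edgeR adjusted p = 0.525) in a fit in which 0 of 152 genes passed and 16 had an unadjusted p under 0.05. Ftl1 gave 0.92 (SE 0.89, edgeR adjusted p = 0.699), again beside a median of 0.80, with means of 265 CPM in healthy and 250 CPM in CIA mice, and -0.06 with the copies added. None of the 8 samples held an Hmox1 UMI. Erythroid genes summed to 108810 to 252520 CPM in these samples, with all 8 detected.

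In the same spleen sample, erythrocytes had more Tfrc than granulocytes in 6 of 6 mice, with 537 ± 258 CPM against 77.1 ± 83.0 CPM, and more than B cells in 8 of 8, with 488 ± 259 CPM against 80.8 ± 26.5 CPM. Slc40a1 was above the level of B cells in 5 of 8 spleen erythrocyte samples and below it in 0. These are descriptions of cells that Tfrc helped to label.

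Whole organs, summed over all annotated cells, carried these differences together with their mix of cell types, in which fewer cells of a type and less RNA per cell cannot be told apart. Lung had the most Fth1, at 8601 ± 1418 CPM (n = 10), followed by joint at 6016 ± 2840 CPM (n = 8), muscle at 5374 ± 3207 CPM (n = 10), spleen at 1708 ± 391 CPM (n = 10), and skin at 1411 ± 710 CPM (n = 10). Joint and muscle did not differ beyond their SD, nor did spleen and skin. Hmox1 was at 1049 ± 399 CPM in lung and at 14.2 ± 9.96 CPM in spleen, the lowest of the 5 organs. Tfrc led in spleen at 109 ± 57.6 CPM and was lowest in lung at 16.8 ± 17.5 CPM.

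CIA and healthy whole organs gave 0 calls among the 7 genes, where 0.127% of all genes passed in joint, 4.96% in lung, 0.055% in muscle, 0 of 2180 in skin, and 0.137% in spleen. In the skin 160 genes had an unadjusted p under 0.05 and DESeq2 called 7. Ftl1 there was at 1614, 1722, 649, and 506 CPM in healthy mice H3, H4, H6, and H7 and at 222, 722, 461, 560, 445, and 701 CPM in the CIA mice. The 2 highest values were of healthy mice, and H6 and H7 lay among the CIA mice. The log2 difference was -1.13 (SE 0.37, edgeR adjusted p = 0.524).

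Fth1 in whole skin was at 1165 to 2605 CPM in healthy and at 741 to 2511 CPM in CIA mice, where S2 alone was above 977 CPM. Its log2 difference of -0.70 (SE 0.34, edgeR adjusted p = 0.703) became -1.15 (edgeR adjusted p = 0.0334) without S2. Whole muscle had Hmox1 at 161, 233, 629, and 311 CPM in healthy mice and at 29.7, 81.7, 103, 355, 115, and 10.6 CPM in the CIA mice, with -1.52 (SE 0.68, edgeR adjusted p = 1.00). Only S5 lay in the healthy range.

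In whole spleen, Hmox1 was at 8.98, 2.43, 0, and 13.7 CPM in healthy mice (4 UMIs) and at 31.5, 18.6, 27.9, 14.2, 14.9, and 9.92 CPM in the CIA mice (39 UMIs), with 1.87 (SE 0.88, edgeR adjusted p = 0.671). Only S8 lay in the healthy range. Slc40a1 had 3 UMIs in healthy and 35 in CIA spleen, 22 of them in S2, with 2.03 (SE 0.98, edgeR adjusted p = 0.696). The median log2 difference of the unfiltered spleen fit was 0.21. Trf in whole spleen, with 30 UMIs, was at 13.7 to 26.9 CPM in the healthy and 0 to 10.5 CPM in the CIA mice. The share of all genes that part in this way was not counted. The difference of Trf, at -1.40 (SE 0.81, edgeR adjusted p = 0.696), did not pass.

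Whole lung, made up mostly of macrophages, gave -1.71 for Trf (SE 0.68, edgeR adjusted p = 0.583) and 2.12 for Slc11a1 (SE 1.02, edgeR adjusted p = 0.583). These rest largely on the UMIs already described in lung macrophages.

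Of the other settings, spleen monocytes gave a log2 difference of 2.05 for Hmox1 (edgeR adjusted p = 0.628, median of the fit 0.30). The gene had 2 UMIs, both in H7, in 4 healthy mice and 21 UMIs in 6 CIA mice, and was detected in 6 of 6 CIA and 1 of 4 healthy mice. The count ratio was 4.84 (exact 95% counting interval 1.18 to 42.5). Spleen NK cells gave 2.31 for Tfrc (SE 0.92, edgeR adjusted p = 0.661, median of the fit 0.22), with 3 UMIs in healthy and 25 in CIA mice and a count ratio of 4.60 (exact 95% counting interval 1.41 to 23.8). In muscle fibroblasts, 10 Slc11a1 UMIs were found in CIA and 0 in healthy mice (edgeR adjusted p = 0.666), in an unfiltered fit with a median of 1.15.

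Some of these settings held many changed genes and some hardly any. The share of all genes that passed was 6.36% in spleen monocytes and 1.68% in joint fibroblasts, and 1 of 1957 genes (0.0511%) passed in muscle T cells. In spleen NK cells, spleen B cells, muscle fibroblasts, skin fibroblasts, and skin Basal III cells the share was 0, with 11, 40, 11, 31, and 71 genes at an unadjusted p under 0.05 and 3, 4, 3, 1, and 0 calls by DESeq2. In none of them did any of the 7 genes pass.

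**Figure D5:**
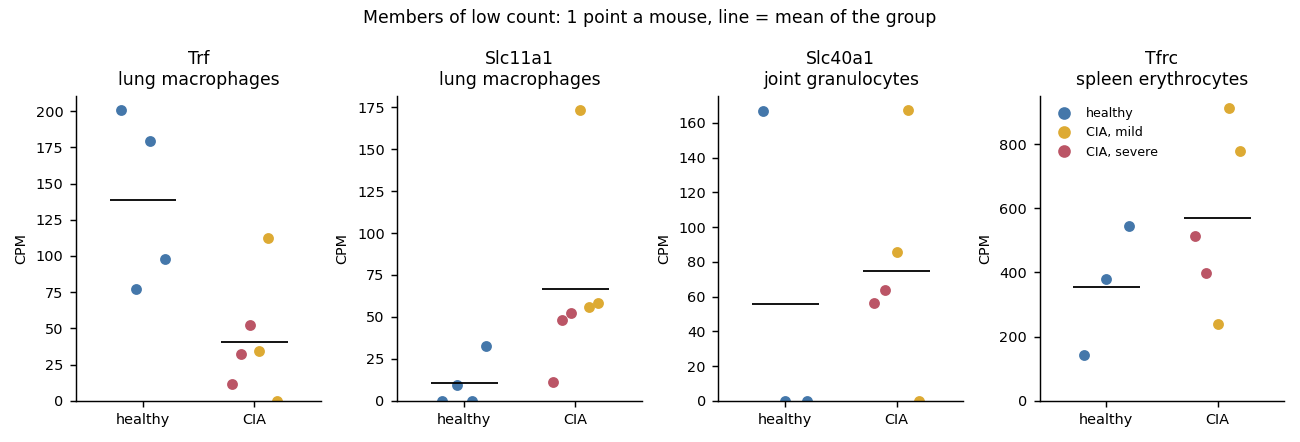
CPM (y axis) of Trf and Slc11a1 in lung macrophages, Slc40a1 in joint granulocytes, and Tfrc in spleen erythrocytes, with 1 point for each healthy or CIA mouse, colours for mild and severe CIA, and a line for the mean of the group. Trf in lung macrophages is at 77.0 to 201 CPM in healthy mice and 0 to 112 CPM in CIA mice.

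The wider iron and haem pathway was followed with a list of 45 further genes, of which 42 were in the table. In granulocytes the highest were Ltf (lactoferrin) at 3973 ± 1098 CPM, Lcn2 (lipocalin 2, which binds bacterial iron carriers) at 3109 ± 1276 CPM, and Hp (haptoglobin, which binds free haemoglobin) at 1239 ± 555 CPM (n = 19 each). Ltf and Lcn2 are also granulocyte markers. In erythrocytes the highest were Blvrb (biliverdin reductase B) at 1073 ± 474 CPM, Slc25a37 (mitoferrin 1) at 725 ± 556 CPM, and Fech (ferrochelatase, the last step of haem synthesis) at 354 ± 225 CPM (n = 10 each). In macrophages they were Bach1 (the haem-sensing repressor of Hmox1) at 311 ± 149 CPM, Nfe2l2 (an activator of Hmox1) at 253 ± 149 CPM, and Pcbp2 (an iron chaperone) at 209 ± 153 CPM (n = 30 each).

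Of the list, Hp alone passed in a comparison of CIA with healthy mice. In joint fibroblasts, where 1.68% of all 1014 genes passed, 1 of 3 listed genes tested rose and none fell. Their median log2 difference was 0.02, beside 0.06 over all genes. Hp was at 15.8, 15.5, and 77.6 CPM in healthy mice H3, H4, and H7 and at 489, 758, and 308 CPM in CIA mice S1, S3, and S5, with a log2 difference of 3.93 (SE 0.68, edgeR adjusted p = 0.0282). The groups did not overlap, and the share of all genes of which this was so was not counted.

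In spleen monocytes Hp was the 1 listed gene tested. It was at 0, 53.0, 38.7, and 40.8 CPM in healthy mice and at 713, 844, 449, 174, 842, and 175 CPM in the CIA mice. The groups again did not overlap, without a count over all genes. The rise was 3.45 on the log2 scale (SE 0.73, edgeR adjusted p = 0.0204), where 6.36% of all genes passed. Granulocyte genes, among which Hp is abundant, rose in range in the same cells, from 773 to 1021 CPM in healthy mice, with Lcn2, Ltf, and Ly6g at 0, to 2824 to 24134 CPM in CIA mice. In joint fibroblasts of at least 5 cells the same sum was 1394 to 6030 CPM in 3 healthy mice, with Mmp9 at 0, and 3864 to 29549 CPM in 4 CIA mice, and the ranges overlapped. The part of these genes in the rise of Hp was not tested in either cell type.

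Between organs, Alas1, the first enzyme of haem synthesis outside the erythroid line, was the listed gene that passed, 1 of 4 tested in granulocytes, in the contrast in which 33.8% of all genes did. It was 106 ± 97.9 CPM in spleen and 648 ± 359 CPM in joint granulocytes, a log2 difference of -2.00 (SE 0.43, edgeR adjusted p = 0.00108). Hp in the same contrast ran from 852 to 2657 CPM in spleen and from 404 to 1621 CPM in joint. The median of the 4 genes was 0.18, beside -0.01 over all 237.

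The genes whose levels were most like each of the 7 were sought over the 30 organ and cell type combinations that had 3 mice or more, among 11413 genes, by Pearson correlation of the log2 mean CPM. The combinations share libraries and depth, and the correlations are a description. The closest to Fth1 were Gm6977 (r = 0.924), Fth-ps2 (r = 0.78), and Clec4d (r = 0.774), and to Ftl1 were Gm6407 (r = 0.892), Gm8814 (r = 0.886), and Gm15590 (r = 0.884), where all but Clec4d are processed pseudogenes among the copies counted above, which share bases with the gene. Hmox1 was closest to Por (r = 0.891), Sgms2 (r = 0.89), and Slc7a11 (r = 0.86). Slc40a1 was closest to Stfa2l1 (r = 0.855), Asprv1 (r = 0.854), and Gm20406 (r = 0.821), and Tfrc to Ncapd3 (r = 0.735), H2afx (r = 0.722), and Fbxo5 (r = 0.704). Slc11a1 was closest to Acvrl1 (r = 0.816), Plaur (r = 0.807), and Sgms2 (r = 0.8), and Trf to Amz1 (r = 0.766), Pacs2 (r = 0.734), and Gm29340 (r = 0.715).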

How the data were processed

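The authors made Seq-Well libraries and processed the reads with tools that the submitters' notes name as bcl2fastq, Picard, and STAR. They deposited a table of raw UMI counts, with a row for each gene and a column for each cell, and 2 cell type labels for each cell, of which the marker-based one was used. Their methods name GRCm38, while the notes list GRCh38 and mm9, and GRCm38 coordinates with GENCODE gene models were used here for positions and hairpins. UMIs of annotated cells were summed per mouse, organ, and label. CIA and healthy mice were compared with the edgeR 4.0.16 quasi-likelihood test in R 4.3.3 (TMM factors, filterByExpr, Benjamini-Hochberg adjustment over all genes tested, threshold 0.05). At least 10 cells and 3 mice a group were required, and for granulocytes and erythrocytes 5 cells and 2 mice. Values for genes under the filter come from an unfiltered fit of all genes that had a UMI. Organ contrasts had organ and disease as terms, with samples taken as independent. Those of granulocytes and T cells were chosen after the values were seen. In comparisons of CIA with healthy mice, the p-values measure the spread between mice. In organ contrasts they measure the spread between samples, with the sharing of mice between organs left out. The scripts were tested on simulated data.

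The 7 genes are named throughout. Of the further iron and haem genes, those past the threshold and the highest by mean CPM are named, and for each of the 7 the 3 genes of highest Pearson r of log2(mean CPM + 10), among genes of at least 50 CPM in a pair. The members and lists were chosen with earlier results of these data known. Alternatives were DESeq2 1.42.0, other size factors, no filter, other cell limits, experiment, red cell lysis, or replicate number as a term, the mouse as a block, leaving out each mouse, and, chosen after the values were seen, adding the UMIs of the ferritin copies. Depth was 410 to 6239 UMIs per annotated cell.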

Additional observations from a re-analysis of the deposited data

Results flagged for a closer look

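In 3 of the 27 groups of 4 to 10 mice examined, 1 mouse lay far from the others by Dixon's criterion, where chance gives about 1 in 20 groups. In joint macrophages of CIA mice, Fth1 of S5 was 13000 CPM (1717 UMIs) and that of the other 3 mice 7610 to 8090 CPM, a gap of 0.912 of the range. In muscle macrophages of CIA mice, Hmox1 of S5 was 1480 CPM (53 UMIs) beside 477 to 611 CPM in the others, which unlike S5 had red cell lysis of muscle, a gap of 0.867 of the range. In joint granulocytes of CIA mice, Slc11a1 of S6 was 167 CPM beside 0 to 38.2 CPM, a gap of 0.772 of the range that rests on 1 UMI.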

How the results depend on the processing

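No member passed in any of the 18 comparisons of CIA with healthy mice under any alternative, except Fth1 in whole skin without S2 (range of the count over mice left out 0 to 1). With a mouse left out, members under the filter on low counts were read only in macrophages, granulocytes, and erythrocytes. In the other cell types and in whole organs they had no value in those fits. Differences near 0 changed sign. With plain library size, Ftl1 in joint macrophages was -0.0335 and Hmox1 in lung macrophages 0.13. Without the filter, Fth1 was -0.0255 in lung macrophages and 0.66 in joint granulocytes, and Hmox1 was 0.37 in joint granulocytes. Fth1 in lung macrophages was -0.0271 with experiment as a term and -0.0343 in the experiment CIA alone, where Fth1 in muscle macrophages was 0.0189 and Hmox1 in joint granulocytes 1.05. Over mice left out, Ftl1 in joint macrophages ran from -0.0904 to 0.63, Fth1 in lung macrophages from -0.046 to 0.16, Hmox1 in lung macrophages from -0.13 to 0.13, and Slc40a1 in granulocytes, spleen minus joint, from -1.08 to 0.16. With the UMIs of the ferritin copies added, Ftl1 was -0.36 in joint macrophages and -0.0613 in spleen erythrocytes, and the number of members called was the same in each comparison. The cause was not tested.

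Of the organ contrasts, the number of members called for lung minus joint macrophages was 1, and 0 with the mouse as a block, 2 with DESeq2, and 0 to 2 over mice left out. For spleen minus muscle granulocytes it was 2, and 1 with the mouse as a block, 0 with at least 10 cells, and 0 to 2 over mice left out. In T cells with at least 10 cells it was 0 for spleen minus joint, muscle minus joint, and spleen minus lung, a setting with fewer samples. Healthy and CIA mice share only the numbers 3 and 6 as names. With the number as a replicate block, Ftl1 in lung macrophages was 0.008 and Fth1 0.06, and no member was called. Deviations of same-numbered mice correlated between -0.229 and 0.331 over 8 settings, at -0.026 and -0.145 in lung macrophages and 0.253 and 0.315 in whole spleen, and the labels give a shared number no meaning. The low UMI counts limit Slc40a1, Slc11a1, and Trf most.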
